A study of Mus musculus with 24 samples.

Results

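The genes described here are 50 genes of mitosis and of the step from G2 into mitosis, chosen by symbol from a fixed list. For each gene the probe set annotated to that symbol alone and with the highest mean log2 intensity over 24 arrays was used. Of the 50, 49 were measured in this way and all 49 were tested, among 18153 genes in all; Ccnb1 was not analysed here. No member had a value below the intensity floor of 7.38 on any array. A total of 46 members lay above the median of their array on at least 3 arrays, 24 did so on all 24 arrays, and Spag5 did so on none.

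Cells enter mitosis when Cdk1, the mitotic kinase subunit, is activated by A- and B-type cyclins and by the removal of inhibitory phosphates by Cdc25 phosphatases. Polo-like and Aurora kinases then build the spindle, the spindle checkpoint holds anaphase back until kinetochores are attached, and the anaphase-promoting complex with Cdc20 and Ube2c destroys cyclin B and securin. Most of these transcripts are made mainly in cycling cells, from promoters on which the MuvB complex binds an element called CHR, often beside CCAAT boxes bound by NF-Y. In the mammary gland, progesterone is known to drive division of epithelial cells, largely through signals passed from receptor-positive luminal cells to their neighbours.

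The tissue was whole mammary gland of nulliparous Balb/c mice. All animals, controls included, had been ovariectomized at 6 weeks of age and left for 2 weeks before treatment. Treated mice were given 1 mg of progesterone in 100 µl of sesame oil under the skin every day, controls were given 100 µl of sesame oil, and glands were taken 4, 16, 28 or 76 h after the first injection. Each of the 8 groups had 3 arrays, and each array held RNA pooled from 5 mice, so that values are averages over animals. With daily injections, the groups of 28 and 76 h had also had more injections than those of 4 and 16 h. Across that step the effects of time and of injection number cannot be told apart. The arrays are labelled biological replicates, and the p-values measure the spread between such pools. The gland is a mixture, in which more dividing cells and more RNA per cell cannot be told apart. Markers of luminal and basal epithelium, fat, lymphocytes, endothelium and stroma were present, and in no group did a measured one lie below the floor on all 3 arrays.

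Progesterone raised the mitotic genes at 76 h, and no member was called higher at an earlier time. Against the oil group of the same time, 42 of the 49 members were called higher at 76 h and 0 were called lower (limma, Benjamini-Hochberg adjusted p under 0.05 over all 18153 genes). Over all genes tested, 7.43% were called higher and 4.2% lower. The median log2 difference of the members was 1.33, or 2.51-fold, against a median of 0.0018 over all genes. Their differences ran from -0.01 for Cenpf to 2.21 for Ckap2. The 42 called members rose by 1.74-fold to 4.61-fold, of which 35 rose at least 2-fold and 5 rose over 4-fold. On the chosen probe sets, all 3 progesterone arrays lay above all 3 oil arrays for 44 members, which was the case for 19.6% of all genes, and for 0 members below them (15.2%).

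**Figure D1:**
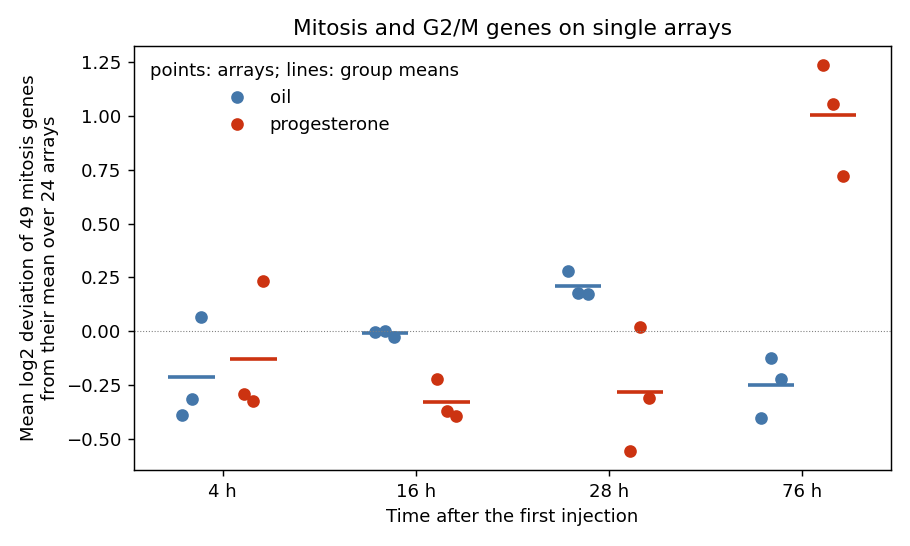
Mean over the 49 measured members of the log2 intensity minus each gene's own mean over the 24 arrays, 1 point per array, by hours after the first injection for oil and progesterone. The 3 progesterone arrays of 76 h lie at 1.24, 1.06 and 0.72, and the other 21 arrays lie between -0.56 and 0.28.

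The promoters of the members shared sequence elements that the choice of members did not use. RefSeq windows of 300 bases, from 250 before to 50 after the annotated start (GRCm38.p6), were at hand for 42 of the 50 members, as 44 windows, since Ect2 and Prc1 have 2 overlapping windows each. Ccna2, Cdc25c, Foxm1, Aurkb, Incenp, Smc4, Tpx2 and Kif20a were without an entry. A CHR, searched as TTTGAA or TTCGAA on both strands, was in 34 of the 44 windows (77.3%), against 19.2% of all 32851 promoter windows and 15.1% of the 18076 windows of genes tested. CCAAT, on either strand, was also in 34 windows (77.3%), against 37.4% of all windows. A window held both in 31 cases (70.5%), against 7.52% of all windows. At least 2 CCAAT matches were in 22 of the 44 member windows (50%) and in 11.7% of all windows. CHR and CCAAT matches shared bases in 1 member window, that of Cdca8. A match is a description of the letters, and binding was not measured.

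**Figure D2:**
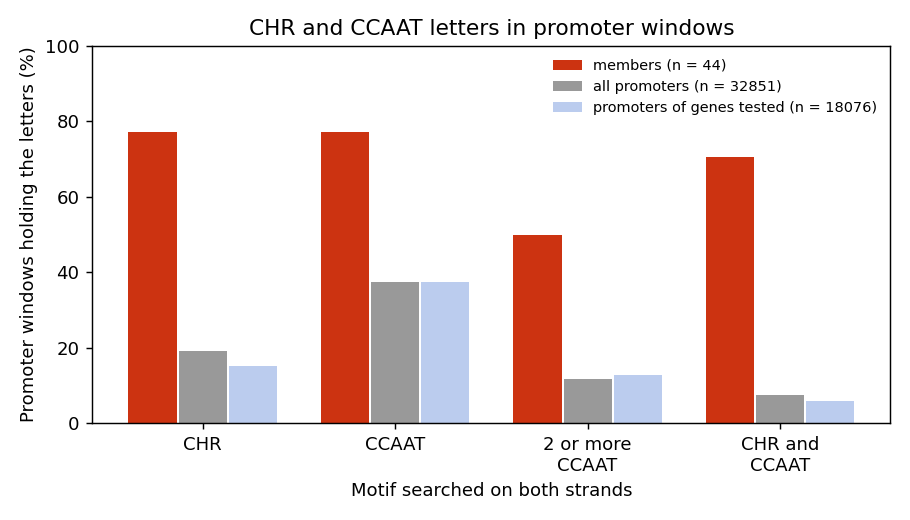
Share, in percent, of RefSeq promoter windows of 300 bases that hold each motif on either strand, for the 44 windows of members, all 32851 windows and the 18076 windows of genes tested. The members' bars stand at 77.3% for the CHR and 70.5% for the CHR together with CCAAT, against 19.2% and 7.52% of all windows.

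The windows below run 5′ to 3′ on the strand of the gene, from 150 bases before to 50 after the annotated start, with matches to the CHR and to CCAAT in capitals (TTCAAA and ATTGG are the same motifs read on the other strand). The first 4 belong to genes that rose at 76 h and hold both motifs: Cdk1 at chr10:69352863-69353062 (minus strand), Ccnb2 at chr9:70421505-70421704 (minus strand), Ube2c at chr2:164769779-164769978 (plus strand) and Ttk at chr9:83834539-83834738 (plus strand).
Cdk1: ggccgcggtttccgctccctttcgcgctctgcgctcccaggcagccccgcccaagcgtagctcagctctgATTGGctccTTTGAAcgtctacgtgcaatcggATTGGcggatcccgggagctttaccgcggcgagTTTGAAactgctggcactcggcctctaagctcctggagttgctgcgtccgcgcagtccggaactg
Ccnb2: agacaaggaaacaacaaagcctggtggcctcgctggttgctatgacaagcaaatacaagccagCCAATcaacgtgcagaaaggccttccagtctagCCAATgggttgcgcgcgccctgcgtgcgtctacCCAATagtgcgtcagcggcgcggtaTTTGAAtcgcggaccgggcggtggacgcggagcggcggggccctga
Ube2c: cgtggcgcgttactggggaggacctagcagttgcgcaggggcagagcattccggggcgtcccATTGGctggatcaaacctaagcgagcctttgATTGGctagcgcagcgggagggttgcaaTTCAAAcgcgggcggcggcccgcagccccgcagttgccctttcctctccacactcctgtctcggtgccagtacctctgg
Ttk: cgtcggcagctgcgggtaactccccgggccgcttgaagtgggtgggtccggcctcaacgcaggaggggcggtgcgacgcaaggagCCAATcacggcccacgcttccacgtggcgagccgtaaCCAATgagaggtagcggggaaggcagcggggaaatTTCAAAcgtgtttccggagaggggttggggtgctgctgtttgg
In Cdk1 the matches alternate, with an inverted CCAAT ahead of each CHR, and in Ccnb2 3 CCAAT boxes precede a CHR that lies past the start. The next 2 hold both motifs and belong to genes whose chosen probe sets were not called: Kif22 at chr7:127042371-127042570 (minus strand) and Cenpf at chr1:189688037-189688236 (minus strand).
Kif22: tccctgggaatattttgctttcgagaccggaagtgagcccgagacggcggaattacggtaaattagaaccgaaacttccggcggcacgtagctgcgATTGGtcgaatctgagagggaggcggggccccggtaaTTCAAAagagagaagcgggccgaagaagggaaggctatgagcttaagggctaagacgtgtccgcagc
Cenpf: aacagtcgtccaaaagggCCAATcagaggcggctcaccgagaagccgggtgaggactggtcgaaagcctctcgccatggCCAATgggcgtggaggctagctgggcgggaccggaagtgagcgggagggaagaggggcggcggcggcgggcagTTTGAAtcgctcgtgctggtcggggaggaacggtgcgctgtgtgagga
The last belongs to Melk at chr4:44300767-44300966 (plus strand), a kinase gene with one of the larger rises. Its window holds neither motif as searched, and no other spelling of the CHR was searched.
Melk: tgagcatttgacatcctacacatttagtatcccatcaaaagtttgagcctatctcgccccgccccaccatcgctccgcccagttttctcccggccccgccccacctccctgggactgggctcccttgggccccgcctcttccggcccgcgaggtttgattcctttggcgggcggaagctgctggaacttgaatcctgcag
Windows with neither motif as searched numbered 7, those of Birc5, Mad2l1, Melk, Ncaph, Nuf2, Nusap1 and Pttg1, and all 7 of these genes rose at 76 h. Among the 39 windows of genes called higher at 76 h, 27 held both motifs (69.2%), and so did all 4 windows of measured members that were not called (Cdc25b, Cenpf, Kif22 and Spag5). Of those 4, Cenpf, Kif22 and Spag5 had another probe set that was called higher at 76 h, which leaves Cdc25b alone without one.

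Among the cyclins and the regulators of Cdk1, 4 of 7 members rose at 76 h. Cdk1 read 207, 240 and 222 in oil and 1118, 917 and 691 with progesterone, a rise of 2.00 ± 0.21 (log2, SE, 4.00-fold, adjusted p = 1.48e-06). Every progesterone array was thus well above every oil array of that time, and replicate 3 was the lowest of the treated arrays. Ccnb2, a B-type cyclin that activates Cdk1, read 121, 189 and 173 in oil and 841, 701 and 473 with progesterone. Its mean went from 161 ± 35.5 to 672 ± 186 (SD, n = 3), a log2 rise of 2.05 ± 0.25 (4.13-fold, adjusted p = 6.79e-06). Ccna2, the cyclin of S phase and early mitosis, rose by 1.43 on the log2 scale. Ccnf, which serves as the substrate receptor of a ubiquitin ligase, rose by 1.83. Its oil values at 76 h were 18.2, 12.1 and 45.0, while the other 9 oil arrays read 38.6 to 74.0, and from those its log2 difference was 0.67 (adjusted p = 0.14).

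The other 3 genes of that group were not called on their chosen probe sets. Foxm1, a transcription factor that activates G2/M genes, read 62.0, 49.9 and 49.5 in oil and 62.6, 58.3 and 55.1 with progesterone, a log2 difference of 0.13 ± 0.17 (adjusted p = 0.719). Cdc25b, a phosphatase that activates Cdk1, differed by 0.18. Cdc25c, another such phosphatase, differed by 1.01 (adjusted p = 0.0922), with values of 16.4, 35.5 and 27.2 in oil against 39.7, 62.7 and 52.0. The Cdc25c arrays did not overlap, but their spread was wide.

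All 5 mitotic kinases were called higher, Plk1 only narrowly. Melk read 49.8, 50.3 and 26.6 in oil and 242, 195 and 129 with progesterone (log2 rise 2.17 ± 0.36, 4.51-fold, adjusted p = 0.000269). Ttk, the kinase that starts the spindle checkpoint signal, read 25.7, 29.2 and 22.6 in oil and 121, 115 and 83.0 with progesterone (log2 rise 2.03 ± 0.26, adjusted p = 1.44e-05). In both genes the lowest progesterone array was well above the highest oil array. Aurka, which acts at spindle poles, rose by 1.34, and Nek2, a kinase of centrosome separation, by 1.18. Plk1, the polo-like kinase of mitotic entry, read 90.0, 106 and 96.2 in oil and 190, 150 and 196 with progesterone. Its log2 rise of 0.87 was close to the threshold (adjusted p = 0.0466), and the call was lost in 16 of 24 fits that left out 1 array and in 8 of 13 other settings. Set against oil from the other times, Plk1 differed by 0.43 (adjusted p = 0.197).

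All 6 genes of the spindle checkpoint and of anaphase rose. Bub1, a checkpoint kinase, read 43.2, 50.1 and 54.4 in oil and 223, 187 and 149 with progesterone (log2 rise 1.90 ± 0.31, adjusted p = 0.000222). Ube2c, the ubiquitin-conjugating enzyme of the anaphase-promoting complex, read 152, 208 and 184 in oil and 695, 565 and 466 with progesterone (log2 rise 1.66 ± 0.23, adjusted p = 3.88e-05). No array of either gene crossed between the groups. Bub1b rose by 1.33, Pttg1 (securin, which holds separase inactive) by 1.23 and Cdc20 (the activator of the anaphase-promoting complex) by 1.18. Mad2l1, which restrains Cdc20, had the smallest called rise of all members, 0.80 or 1.74-fold.

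The chromosomal passenger complex, which corrects faulty attachments and prepares cytokinesis, rose in all 4 subunits. Birc5 (survivin) read 126, 180 and 177 in oil and 594, 501 and 356 with progesterone (log2 rise 1.57 ± 0.31, adjusted p = 0.0015). Cdca8 (borealin) read 91.0, 123 and 96.8 in oil and 370, 314 and 199 with progesterone (log2 rise 1.47 ± 0.28, adjusted p = 0.00106). The kinase of the complex, Aurkb, rose by 1.44. Its scaffold Incenp rose by 0.85.

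Of the kinetochore and centromere genes, 4 of 6 rose. Cenpe, a kinetochore motor, read 37.1, 57.2 and 34.6 in oil and 174, 150 and 103 with progesterone (log2 rise 1.73 ± 0.25, adjusted p = 5.45e-05). Nuf2 read 52.4, 65.6 and 56.7 in oil and 262, 191 and 138 with progesterone (log2 rise 1.72 ± 0.28, adjusted p = 0.000268). Its partner in the Ndc80 complex, Ndc80, rose by 0.84. Cenpa, the histone H3 variant of centromeres, rose by 1.25. Cenpf, a large protein of the outer kinetochore, and Spag5 (astrin) were not called and differed by -0.01 and 0.30.

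Of 7 genes of chromosome structure, 6 rose. Mki67 (Ki-67), the widely used marker of cycling cells that coats mitotic chromosomes, read 342, 412 and 360 in oil and 1241, 1168 and 846 with progesterone. Its mean went from 371 ± 36.6 to 1085 ± 210 (SD, n = 3), a log2 rise of 1.53 ± 0.22 (adjusted p = 5.04e-05). Top2a, which untangles sister chromatids, read 324, 408 and 365 in oil and 1205, 1114 and 806 with progesterone (log2 rise 1.50 ± 0.22, adjusted p = 5.73e-05). For both genes the lowest treated array, at 846 and 806, was well above the highest oil array, at 412 and 408. The condensin genes Ncapg, Smc2, Ncaph and Ncapd2 rose by 1.31, 1.01, 0.99 and 0.88, and the condensin gene Smc4 differed by 0.30 (adjusted p = 0.0552).

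Of 8 spindle motors and microtubule binders, 7 rose. Ckap2, a microtubule-binding spindle protein, had the greatest rise of all members: it read 40.4, 45.8 and 43.3 in oil and 261, 205 and 147 with progesterone (log2 rise 2.21 ± 0.24, 4.61-fold, adjusted p = 1.98e-06). Nusap1 read 121, 136 and 138 in oil and 465, 360 and 282 with progesterone (log2 rise 1.46 ± 0.22, adjusted p = 9.72e-05). Kif11, the motor that drives spindle poles apart, rose by 1.40, Tpx2, which activates Aurora A, by 1.36, Kif4 by 1.19, Hmmr by 1.02 and Kif2c by 0.83. The chromokinesin Kif22 was not called (0.14).

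All 6 genes of the spindle midzone and of cytokinesis rose. Ect2, the exchange factor that activates RhoA at the division plane, read 32.0, 41.9 and 45.1 in oil and 181, 141 and 106 with progesterone (log2 rise 1.83 ± 0.31, adjusted p = 0.000323). Kif20a read 27.4, 42.9 and 35.1 in oil and 166, 119 and 93.0 with progesterone (log2 rise 1.82 ± 0.36, adjusted p = 0.00132). The midzone motor Kif23 rose by 1.52, the contractile-ring scaffold Anln by 1.42, the microtubule bundler Prc1 by 1.18 and Racgap1, partner of Kif23, by 1.09. Genes of the first and of the last steps of mitosis therefore stood higher together at 76 h.

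**Figure D3:**
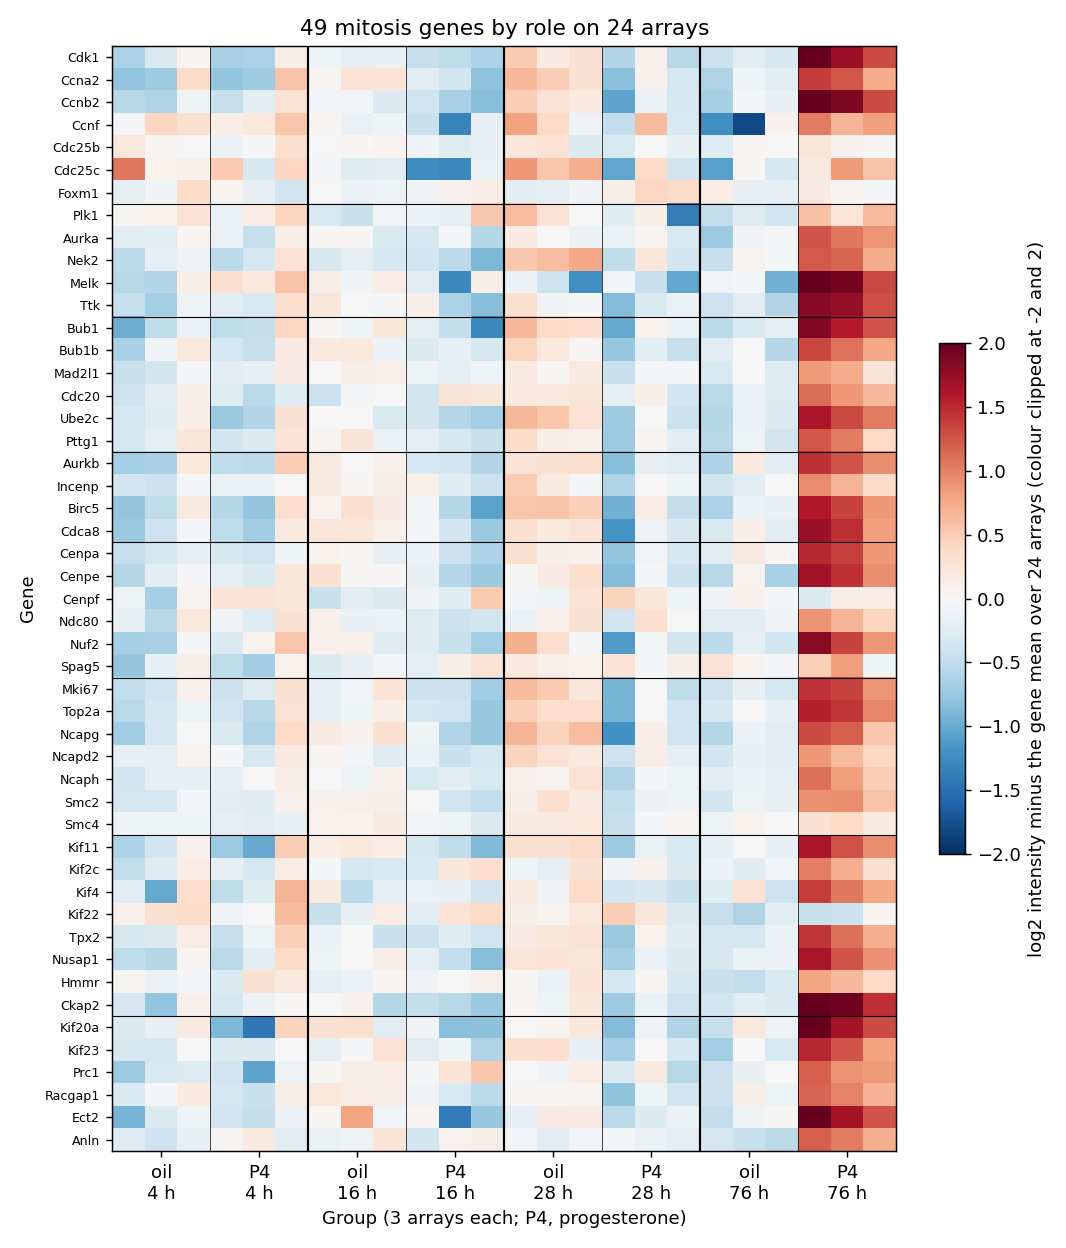
Log2 intensity minus each gene's mean over the 24 arrays for the 49 measured members, ordered by role, with arrays in columns by group; the colour scale stops at -2 and 2. The 3 progesterone columns of 76 h are raised in nearly every row, and the rows of Cdc25b, Foxm1, Cenpf, Spag5, Smc4 and Kif22 stay near their mean.

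Several of the uncalled members had another probe set that was called. The members had 64 further probe sets with the same single symbol, belonging to 34 genes. In a fit over all 34844 such probe sets, 30 of the 64 were called higher at 76 h and 0 lower, and 34 were not called. Those 34 included sets of called members that did not rise, such as 1423093_at of Incenp (-0.67) and 1440129_at of Aurka (-0.42). The chosen Cenpf probe set, 1452334_at, read 86.6, 96.7 and 89.0 in oil and 74.9, 98.1 and 100.3 with progesterone, while a second one, 1427161_at, read 32.2, 28.3 and 41.8 in oil and 232, 183 and 130 with progesterone (log2 2.39). The chosen Kif22 set, 1437716_x_at, read 932, 842 and 1103 in oil and 943, 945 and 1308 with progesterone, while 1451128_s_at read 33.0, 41.7 and 32.1 in oil and 146, 112 and 96.5 with progesterone (log2 1.72). Spag5 had further sets at 2.04 and 1.98, Foxm1 one at 1.54 (adjusted p = 0.00362) and Cdc25c one at 1.17 (adjusted p = 0.00443). Counting any probe set, 46 of the 49 members had at least 1 called higher, and Cdc25b, Smc4 and Plk1 (adjusted p = 0.0607 in that fit) had none. Several sets per gene give more chances of a call. The share of all probe sets, or of all genes with any set, called in that fit was not counted. The verdict on 5 of the 7 uncalled members thus depended on which probe set stood for the gene. Which of the probe sets measures the transcript better was not tested.

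Against the 9 oil arrays taken at other times, 40 of the 49 members were called higher for progesterone at 76 h, with a background of 11.8% higher and 10.5% lower. All 40 were among the 42 called against the oil of 76 h; Ccnf and Plk1 were called against the latter only. The median log2 difference was 1.09 (2.13-fold), and 44 members had a smaller difference than against their own oil. Cdk1 stood 1.71 above the other oil arrays, Ccnb2 1.85, Ckap2 2.05 and Mki67 1.16. For 35 members all 3 progesterone arrays of 76 h lay above all of the other 21 arrays, as they did for 6.5% of all genes. Without the oil arrays of 28 h in that comparison, an alternative chosen after seeing the data, 42 members were called and the median was 1.17. The share of all genes called in that setting is not given.

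**Figure D4:**
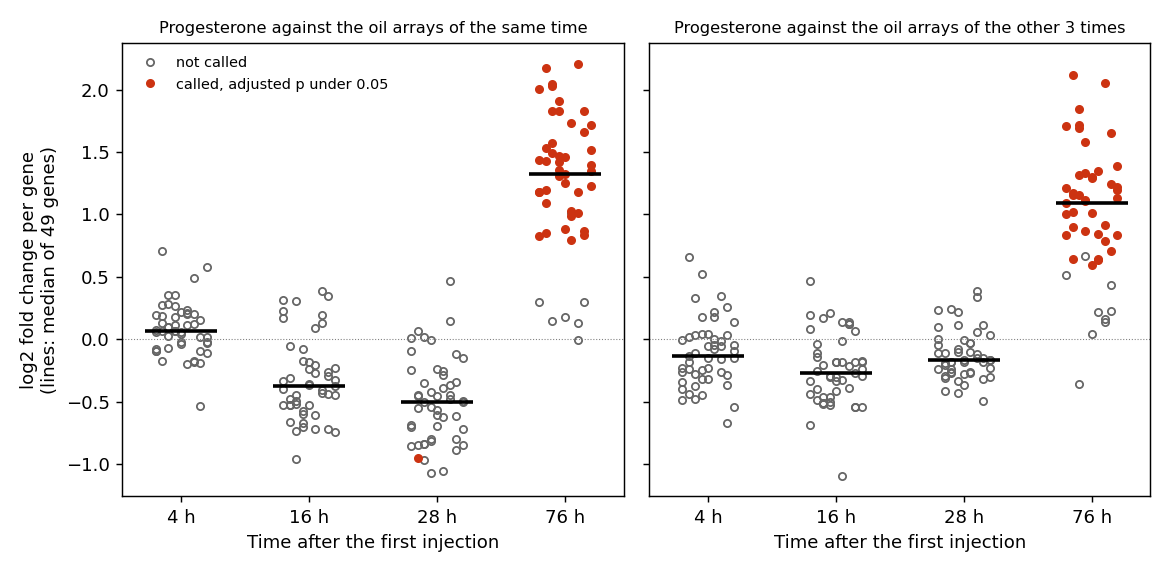
Log2 difference of progesterone for each of the 49 members at each time, against the oil of the same time and against the 9 oil arrays taken at other times. At 28 h the members' median is -0.50 against their own oil and -0.16 against the other oil arrays, and at 76 h it is 1.33 and 1.09; the comparisons share arrays.

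The change at 76 h differed from the changes at the earlier times. The difference between the change at 76 h and the mean of the changes at 4, 16 and 28 h was called positive for 42 members, against 5.92% of all genes, and negative for 0, against 2.55%, with a members' median of 1.56. A moderated F-test of whether the 4 changes differ called 39 members, against 5.95% of all genes. The 10 members that it did not call were Cdc25b, Cdc25c, Foxm1, Plk1, Cenpf, Ndc80, Spag5, Kif2c, Kif4 and Kif22.

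At 4 h no member was called in either direction, against a background of 0.0936% higher and 0.0441% lower, and the lowest adjusted p was 0.373; at an unadjusted p under 0.05 the count was 1. The median log2 difference was 0.06, with 33 positive and 16 negative. All 3 progesterone arrays lay above all 3 oil arrays for 2 members (6.51% of all genes) and below them for 1 (9.65%). The members with the greatest differences were Melk (0.70), Nuf2 (0.58) and Kif20a (-0.54). Kif20a read 30.9, 33.4 and 42.6 in oil and 20.1, 14.0 and 51.1 with progesterone, so that its highest and its lowest values of that time were both from progesterone arrays. Against the oil of the other times no member was called either (background 1.52% higher and 1.75% lower), with a median of -0.14, an unadjusted count of 7 and a lowest adjusted p of 0.0543. For 1 member all 3 progesterone arrays lay below those 9 oil arrays (2.09% of all genes). The background shares given here and below belong to the main fit, and those of other settings are not given. For counts at an unadjusted p under 0.05, here and below, the share of all genes was not counted. With limma's array weights that comparison called 15 lower. It called 6 lower without progesterone replicate 3 of 4 h, and 1 without progesterone replicate 3 of 16 h or progesterone replicate 1 or 3 of 28 h.

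At 16 h no member was called (background 0.0496% higher and 0.105% lower), with a lowest adjusted p of 0.200, although 40 of 49 differences were negative, at a median of -0.38, and 11 passed an unadjusted p under 0.05. For 26 members all 3 progesterone arrays lay below all 3 oil arrays, against 9.12% of all genes, and for 0 members above them, against 6.39%. Cdk1 read 262, 247 and 252 in oil and 201, 195 and 181 with progesterone. Mki67 read 398, 439 and 551 in oil and 338, 339 and 283 with progesterone. The groups did not overlap in either gene. The greatest differences were those of Ect2 (-0.96), Kif11 (-0.74) and Birc5 (-0.74). Against the 9 oil arrays taken at other times the median was -0.27, no member was called (background 1.37% higher and 1.22% lower, lowest adjusted p = 0.0519, 13 at an unadjusted p under 0.05), and for no member did all 3 progesterone arrays lie below all 9 (0.959% of all genes). With array weights, which give noisy arrays less influence, 13 members were called lower against their own oil and 7 against the other oil. The share of all genes called with array weights is not given. Without progesterone replicate 1 of 16 h, 2 were called lower against either. Against the other oil, 2 were also called without oil replicate 3 or progesterone replicate 1 or 2 of 28 h or oil replicate 1 of 76 h, and 1 without progesterone replicate 3 of 4, 16 or 76 h.

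At 28 h the members stood lower than their own oil, and 1 of them, Mki67, was called lower, against a background of 0.303% lower and 1.09% higher. The median log2 difference was -0.50, with 44 of 49 negative, and 29 passed an unadjusted p under 0.05 in that direction. The share of all genes passing that unadjusted threshold was not counted. Mki67 read 711, 660 and 537 in oil and 240, 457 and 320 with progesterone (-0.95 ± 0.22, adjusted p = 0.0281). For 31 members the arrays did not overlap in that direction, against 4.9% of all genes, and in the other direction for 1, against 6.27%. The greatest differences were those of Ncapg (-1.07, adjusted p = 0.0901), Cdc25c (-1.05) and Birc5 (-0.97). The count of called members was fragile: it was 9 without progesterone replicate 2 of 28 h, 4 without progesterone replicate 3 of 4 h, 2 without progesterone replicate 1 of 4 h, and 0 without oil replicate 1, oil replicate 2 or progesterone replicate 1 of 28 h. A filter on dim genes gave 5 and array weights gave 11, while a fit of the 6 arrays of 28 h alone gave 0.

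The oil arrays of 28 h were themselves high. Compared with the 9 other oil arrays, 3 members were called higher in the oil of 28 h (background 0.848% higher and 3.7% lower), with a median of 0.33 and 47 of 49 differences positive. The oil group of 28 h had the highest mean of the 4 oil groups for 41 members, against 21.6% of all genes. For 14 members all 3 of its arrays lay above the 9 other oil arrays, against 1.23%. The 3 called were Nek2 (125, 132 and 145, a log2 difference of 0.86, adjusted p = 0.00735), Ube2c (359, 332 and 277, a difference of 0.70, adjusted p = 0.0355) and Mki67 (0.65, adjusted p = 0.0383). That count was 6 without progesterone replicate 3 of 4 h or progesterone replicate 2 of 28 h, and 5 without oil replicate 3 of 4 h or progesterone replicate 1 of 28 h. It was 1 without oil replicate 1 or 2 of 4 h, oil replicate 1 or 2 of 28 h, or oil replicate 1 of 76 h, and 20 with array weights.

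Set against the oil of the other times, progesterone at 28 h left no member called (background 0.264% higher and 0.242% lower, lowest adjusted p = 0.321, 3 at an unadjusted p under 0.05), with a median of -0.16. The difference for Mki67 was then -0.29 (adjusted p = 0.537). Nek2 read 60.5, 101 and 66.1 with progesterone at 28 h, a difference of -0.85 from its own oil (adjusted p = 0.0682) and of 0.00 from the oil of other times. For no member did all 3 progesterone arrays of 28 h lie below all 9 of those oil arrays (1.04% of all genes). At the median, the members stood further below the oil of 28 h than below the oil of other times. The oil of 28 h was the oil group in which their mean was highest. Against the oil of other times, 38 of 49 differences were still negative. What the oil and the progesterone arrays each contributed was not tested.

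In some groups most members were highest, or lowest, on the same array. The mean log2 deviation of the members was -0.39, -0.32 and 0.07 on the oil arrays of 4 h (replicates 1 to 3), and -0.29, -0.33 and 0.23 on the progesterone arrays of 4 h. Replicate 3 was the highest of its 3 arrays for 44 members in oil and for 44 with progesterone at 4 h, against 33.8% and 35% of all genes. At 16 h the oil arrays lay between -0.03 and 0.00064, with the highest array split among replicates 1, 2 and 3 for 17, 14 and 18 members, and the progesterone arrays at -0.22, -0.37 and -0.40. At 28 h the oil arrays lay at 0.28, 0.18 and 0.17, whereas the progesterone arrays spread from -0.56 (replicate 1) over 0.02 (replicate 2) to -0.31 (replicate 3). Replicate 1 was the lowest of its 3 for 38 members, against 33.1% of all genes, and replicate 2 was the highest of its 3 for 39 members, against 24.1%. At 76 h the oil arrays lay at -0.41, -0.12 and -0.22, and the progesterone arrays at 1.24, 1.06 and 0.72. There, replicate 1 was the highest of the 3 for 42 members (34.9% of all genes) and replicate 3 the lowest for 44 (37.2%). The pooled SD of this mean within groups was 0.21. The group means in oil and with progesterone were -0.21 and -0.13 at 4 h, -0.010 and -0.33 at 16 h, 0.21 and -0.28 at 28 h, and -0.25 and 1.00 at 76 h. The groups overlapped at 4 h, and at 16 and 28 h all 3 progesterone arrays lay below all 3 oil arrays.

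**Figure D5:**
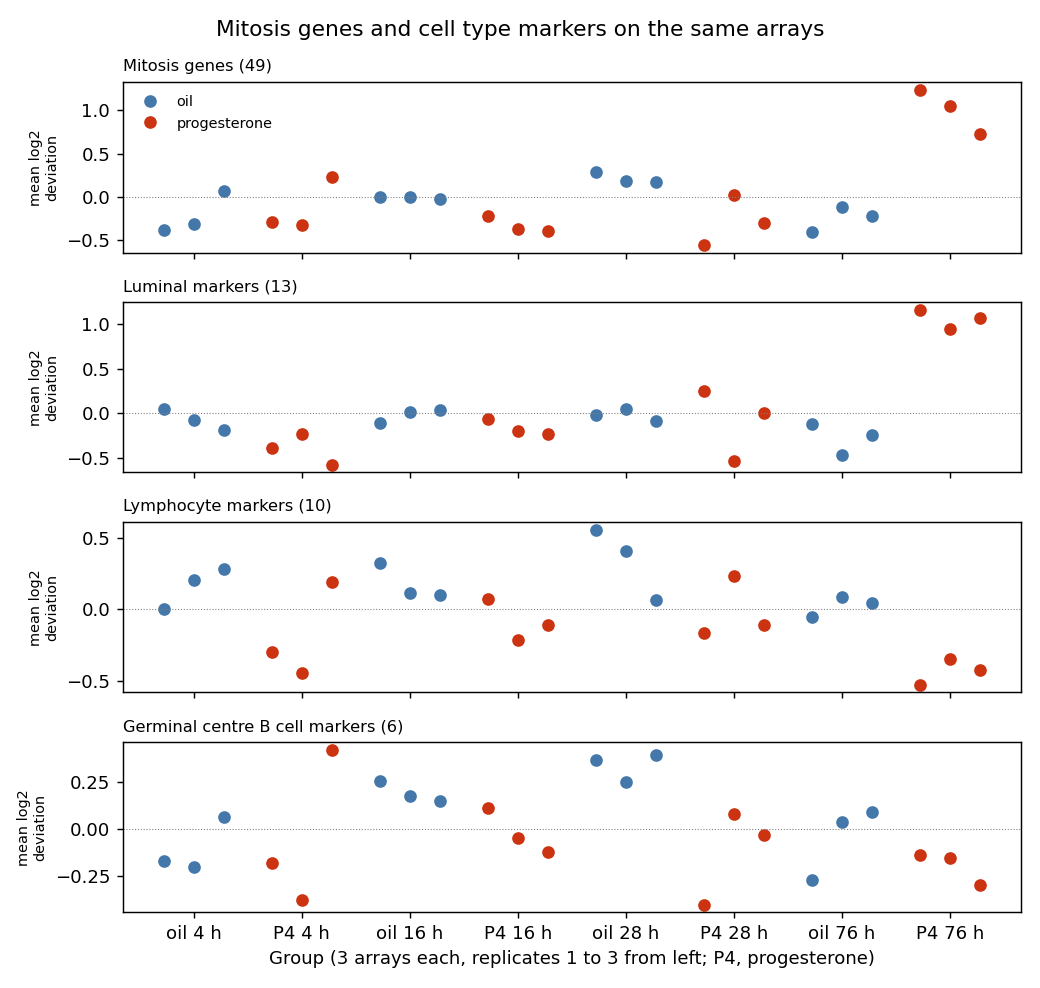
Mean log2 deviation of the mitotic members beside that of cell type marker lists, 1 point per array, by group. Luminal markers stand at 1.16, 0.94 and 1.07 on the progesterone arrays of 76 h beside 1.24, 1.06 and 0.72 for the members, and lymphocyte markers stand at -0.53, -0.35 and -0.42.

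Markers of cell types moved on the same arrays. At 76 h, 11 of 13 luminal epithelial markers were called higher (median log2 difference 1.44), and their summed intensity was 7194 to 8961 in oil and 19388 to 22002 with progesterone. Of 8 basal epithelial markers 7 were called higher (median 1.09), with sums of 5628 to 6240 and 9290 to 9948. Of 10 lymphocyte markers 5 were called lower (median -0.48), with sums of 16827 to 18790 in oil and 12506 to 14055 with progesterone, and 0 of 6 germinal centre B cell markers were called. Fibroblast sums were also higher, at 39930 to 43813 in oil and 47655 to 51185 with progesterone. Endothelial sums were lower, at 3835 to 4160 and 2911 to 3223, as were those of white adipocytes, at 44184 to 44932 and 39008 to 43721. Sums of macrophage, plasma cell and skeletal muscle markers overlapped between the groups. Among the treated arrays of 76 h the luminal mean did not follow the members' order, as replicate 3 had 1.07 and replicate 2 had 0.94. How much of the members' rise went with a larger epithelial share, or with the other marker changes, was not tested.

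Marker lists also differed between arrays of the earlier times. Of the progesterone arrays of 4 h, replicate 3 had lymphocyte markers at 0.19, against -0.30 and -0.45 on the other 2, and germinal centre B cell markers at 0.43, against -0.18 and -0.38. It also had plasma cell markers at 0.27, against -0.36 and -0.34, and skeletal muscle markers at -0.65, against 0.66 and -0.13. Its luminal markers stood at -0.58, against -0.39 and -0.24. On the oil arrays of 4 h, replicates 1 to 3, lymphocyte markers stood at 0.0047, 0.20 and 0.29, and germinal centre B cell markers at -0.17, -0.21 and 0.07. The oil arrays of 28 h had lymphocyte markers at 0.56, 0.41 and 0.07 and germinal centre B cell markers at 0.37, 0.25 and 0.40. The progesterone arrays of 28 h had lymphocyte markers at -0.17, 0.24 and -0.11, and germinal centre B cell markers at -0.41, 0.08 and -0.03. In both lists replicate 2 was the highest, as it was for the members. The summed lymphocyte intensity was 18996 to 25026 in the oil of 28 h and 15481 to 20132 with progesterone, and that of the 6 germinal centre markers 1365 to 1440 and 1196 to 1264. Bcl6 and Fas, which make up much of the latter sum, are also expressed outside B cells. Other lists set the oil arrays of 28 h apart as well. Against the other oil arrays, 6 of 6 fibroblast markers and 4 of 6 macrophage markers were called lower in them, and 3 of 5 plasma cell markers higher. Their mean deviations were -0.64, -0.48 and -0.38 for fibroblast, -0.59, -0.57 and -0.21 for macrophage, -0.44, -0.54 and -1.25 for skeletal muscle, and 0.27, 0.46 and 0.38 for plasma cell markers. Among the progesterone arrays of 28 h, replicate 2 had luminal markers at -0.53, against 0.25 and 0.0033 on replicates 1 and 3, and skeletal muscle markers at -0.69, against 0.57 and 0.23. The part of these tissues in the members' differences was not tested.

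Of 65 measured further mitotic genes, 32 were called higher at 76 h and 0 lower, with a median of 0.65, and none was called at 4, 16 or 28 h. Over all genes, 7.43% were called higher at 76 h and 4.2% lower. The list was chosen with earlier results of these data known. Aspm, a spindle pole protein, read 41.0, 56.0 and 41.3 in oil and 233, 186 and 137 with progesterone (log2 1.99). Depdc1a rose by 1.92, the centromere gene Cenpi by 1.84 and Esco2, which acetylates cohesin, by 1.80. Of 24 DNA replication genes, 16 were called higher and 0 lower (median 0.60), led by Mcm6 of the replicative helicase (488, 543 and 523 in oil, 1396, 1248 and 1166 with progesterone, log2 1.29). Tk1, thymidine kinase, rose by 1.29, Rrm1, a ribonucleotide reductase subunit, by 1.04 and Ccne2, a cyclin of S-phase entry, by 0.96.

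Further machinery and regulators of the cell cycle were listed separately. At 76 h, 7.43% of all genes were called higher and 4.2% lower. Of 13 subunits and activators of the anaphase-promoting complex, 1 was called (Anapc4, 0.40), with a median of 0.18. Of 9 cohesin genes 2 were called higher (Rad21, 0.30, and Smc1a, 0.25). Of 19 E2F, RB family and MuvB genes 3 were called higher (E2f7, 0.79, Tfdp1, 0.47, and Tfdp2, 0.27), while Mybl2, the B-Myb partner of MuvB, differed by 0.20 (adjusted p = 0.716). Of 13 genes of CDK inhibition and cell cycle exit, Cdkn1c (p57) rose by 0.98 and Gas1 by 0.76, whereas Cdkn1a (p21) fell by 0.63 and Cdkn2c (p18) fell by 0.34. Cdkn1c read 438, 375 and 415 in oil and 929, 684 and 827 with progesterone. At 4, 16 and 28 h none of these lists had a called gene except the last, in which Trp53inp1 was called lower at 28 h.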

How the data were processed

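Total RNA of mammary glands, extracted with Trizol and pooled from 5 mice per array, was labelled in 1 cycle, per the labels' protocols, and measured on Affymetrix Mouse Genome 430 2.0 arrays. The authors deposited 1 linear intensity value per probe set for each of 45101 probe sets on 24 arrays; their software and normalization: not given in the sources used here. Array medians ran from 62.8 to 70.2, and arrays of 1 group correlated at 0.978 to 0.991. Precision is limited by having 3 arrays in a group.

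A floor at the 10th percentile of all values (7.38) was applied before taking log2. Array medians then spanned 0.16 on the log2 scale, under the limit of 0.3 set for a further normalization. Of the probe sets, 34958 had 1 gene symbol in the platform annotation, 932 had several and 9211 had none; 64 control probe sets were left out. The probe set with the highest mean stood for each of 18193 genes, and 40 genes at the floor on every array were dropped. All 24 arrays were fitted with a mean per group in limma 3.58.1 (R 4.3.3) with an intensity trend. P-values were two-sided, Benjamini-Hochberg adjusted over 18153 genes and called under 0.05, with no filter on low values, so that every member was tested. The method was tested on simulated data with known changes.

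Members and lists were chosen with earlier results of these data known. Named in full were the 2 called members per role group with the largest change at 76 h, with Mki67, Cdk1, Birc5 and Foxm1 always, the 3 largest differences at earlier times and up to 4 called genes of each further list. A list was described by its counts and its median. Of 67 further mitotic genes listed 65 were measured, and of 25 replication genes 24 were.

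Alternatives were filters on low values, quantile normalization, median centring, a floor at the 25th percentile, log2 of the value plus 16, the mean of probe sets, no trend, array weights, a replicate block, a threshold of 0.01, only the arrays of 1 time, and leaving out each array. Leaving out the oil arrays of 28 h was added after seeing the data, as was testing each probe set alone. Promoter windows came from RefSeq (GRCm38.p6), matched by symbol.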

Additional observations from a re-analysis of the deposited data

Results flagged for a closer look

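The changes of the mitotic genes differed between times. The moderated F-test across the 4 changes called 39 members. The change at 76 h exceeded the mean change at 4, 16 and 28 h for 42 members. That difference, on the log2 scale, was 2.40 for Ccnb2, 2.40 for Cdk1, 2.09 for Melk, 2.25 for Ttk, 2.29 for Bub1 and 2.16 for Ube2c. It was 2.13 for Birc5, 1.91 for Cdca8, 2.07 for Cenpe, 1.95 for Nuf2, 1.98 for Mki67 and 1.89 for Top2a. It was 2.44 for Ckap2, 1.77 for Nusap1, 2.23 for Ect2 and 2.45 for Kif20a. For all but Melk the difference was larger than the change at 76 h itself. The mean of the earlier changes is subtracted in it, and the members' median change was -0.38 at 16 h and -0.50 at 28 h. At 28 h that median was -0.16 against the oil of other times. Groups of 3 arrays were too small for a test of single outlying arrays.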

How the results depend on the processing

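The median difference of the members at 76 h stayed positive under every alternative tried. The count of members called higher, 42 against their own oil, was 38 to 43 when single arrays were left out, and 41 without the oil arrays of 28 h. Of the 42, 38 stayed called without any single array (the exceptions were Plk1, Ndc80, Kif2c and Kif4) and 32 under every setting in which they were tested; 8 of these 32 were not tested under a filter on low values. Averaging all probe sets of a gene lowered the median rise at 76 h to 1.02 against own oil, to 0.79 against the oil of other times, and to 1.21 as the excess over the earlier changes. It turned Cenpf to 0.80, and under it Aurka, Nek2, Incenp, Ncapg and Smc2 lost their call at 76 h against own oil. Array weights put Cenpf at 0.00056, and without single arrays it read -0.080 to 0.13 and Kif22 -0.014 to 0.25.

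The calls at earlier times were unstable. The counts that follow are of members only, and the share of all genes called in each setting is not given. At 28 h, where 1 member was called lower, either filter on low values gave 5, median centring 3, a pseudocount of 16 gave 4, array weights 11, and no trend, a threshold of 0.01 or the 6 arrays of 28 h alone gave 0; leaving out single arrays gave 0 to 9. At 16 h, array weights gave 13 lower in place of 0, and single arrays 0 to 2. Against the oil of other times, 4 h gave 1 lower with either filter or the mean of probe sets, 15 with array weights, and 0 to 6 without single arrays. The same for 16 h gave 1 with either filter, a floor at the 25th percentile or the pseudocount, 2 with quantile normalization, 3 with centring, 7 with array weights, and 0 to 2 without single arrays. For the oil of 28 h, either filter gave 6 higher, the pseudocount 5, no trend 1, array weights 20, a threshold of 0.01 gave 1, and single arrays 1 to 6. Apart from what the construction shows, the cause was not tested.

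With the replicate number as a block, 41 members were called at 76 h and 1 at 28 h. Deviations of same-numbered arrays correlated at -0.04 to 0.23, with 4 of these correlations over 0.1. Such correlations cannot decide whether the numbers pair the samples, and the main fit treated the arrays as unpaired. Dim members limit what can be seen: 16 had a mean in the oil of 76 h below the lowest array median.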
